A study of Mus musculus with 6 samples.

Results

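The genes of sterol and fatty acid synthesis were measured in preadipocytes selected for high or low binding of FcsFNDC4, the soluble extracellular part of FNDC4 fused to human IgG (Fc). The set held 36 genes, chosen by name for their role in cholesterol synthesis, its control, fatty acid synthesis, desaturation or cholesterol efflux, out of 19938 genes with a transcript cluster of their own. A transcript cluster is a group of array probes read together. All 36 had such a cluster, and the cluster with the highest mean intensity stood for a gene. The cells were an immortalized line of the stromal vascular fraction (SVF) of inguinal white fat of male 129SVE mice. The labels name no other genetic change and no drug treatment. High binding cells (HBC) and low binding cells (LBC) were sorted after exposure to 100 nM FcsFNDC4, expanded and re-sorted up to passage 20, and RNA of 3 technical replicates of each was read on 6 Affymetrix mouse gene arrays. Each group was thus 1 sorted population, so the p-values speak only of variation among technical replicates, since no second sort was measured.

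The titles and cell phenotypes gave 3 arrays per group, while for LBC replicates 2 and 3 the source name field says HBC. Arrays were grouped by title. Across genes, arrays correlated at r from 0.996 to 0.999 within these groups and from 0.980 to 0.986 between them, and the LBC arrays correlated with each other as members of 1 group do. Without both arrays, the counts of the 36 genes that were called or passed the adjusted p were the same as those given below, but that fit leaves 1 LBC array, which is assumed to vary as the HBC arrays do, and so does not settle the label. Of 8 preadipocyte markers measured, 7 had means above 100 in both groups, with Pdgfra at 4096 in HBC and 3166 in LBC. Others of that list were much dimmer, namely Cd34 (134 in HBC and 189 in LBC), Thy1 (149 and 166) and Dpp4 (44.8 and 45.3). Among markers of other cell types, Adipoq (43.0 in HBC and 40.7 in LBC) and Lep (40.8 and 46.1) of adipocytes, Ptprc (59.8 and 69.9) of leukocytes and Cdh5 (57.1 and 69.3) of endothelium were dim. The same lists also held brighter genes, namely Fabp4 (2363 and 1774) and Retn (187 and 120) of adipocytes, Cd68 (174 and 188) and Itgam (159 and 189) of macrophages and Cldn5 (210.3 and 207) of endothelium. In RNA from a cell population, fewer cells of a type and less RNA per cell cannot be told apart.

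Cells make cholesterol from acetyl-CoA through mevalonate and squalene, and most enzymes of this route are transcribed under the control of SREBP2, a membrane-bound transcription factor. When membranes are poor in sterol, SCAP carries SREBP to the Golgi for cleavage, and INSIG proteins hold it back when sterol is plentiful. The related SREBP1 drives the genes of fatty acid synthesis and desaturation, which preadipocytes raise strongly as they become fat cells. Oxysterols act on the other side, through liver X receptors (LXR) that switch on the efflux pumps ABCA1 and ABCG1.

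The promoters of these genes were searched for sequence motifs, which the choice of members did not use, and only the box CCAAT was common. RefSeq windows (GRCm38.p6), from 250 bases before to 50 after a start site, were at hand for 28 of the 36 genes, with 35 windows in all. The box CCAAT, bound by NF-Y, which works together with SREBP at sterol genes, was searched on both strands (ATTGG on the other strand). It was present in 22 of the 28 genes, or 78.6%, beside 41.7% of 15614 tested genes with a window. Counted by window it was in 62.9% of the members' windows and 37.4% of all 32851 windows. All 14 sterol synthesis enzymes with a window held it, from Hmgcs1 to Dhcr7, while Scap, Acaca, Elovl6, Fads2, Ch25h and Abca1 did not. The core of a sterol regulatory element, TCACNCCAC, was in 1 window of the members, that of Hmgcs1, and in 1.24% of all windows, and it did not overlap a CCAAT box there. The ideal LXR element, AGGTCA repeated after 4 bases, was searched on both strands as well and was in no window of the members and in 5 of all windows. A match is a description of letters and not a site shown to be bound.

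The windows of Hsd17b7, Lss and Abca1 are shown because these genes were higher in HBC by the adjusted p. Abcg1, also higher, had no window, nor did Fdps, Fdft1, Sqle, Stard4, Scd1, Scd2 and Fads1. The window of Hmgcs1 is shown because it alone held the sterol element among the 28 genes with a window. That of Acss2 is shown because it had the largest rise among the other genes of the pathway. Matches to the motifs are in capitals. The windows lie at chr13:119690101-119690400, plus strand (Hmgcs1), chr1:169969156-169969455, minus strand (Hsd17b7), chr10:76531355-76531654, plus strand (Lss), chr4:53159846-53160145, minus strand (Abca1) and chr2:155517793-155518092, plus strand (Acss2). The sterol element of Hmgcs1 starts 137 bases before the start site, and the CCAAT boxes of Hsd17b7 start 165, 73 and 12 bases before it.
Hmgcs1: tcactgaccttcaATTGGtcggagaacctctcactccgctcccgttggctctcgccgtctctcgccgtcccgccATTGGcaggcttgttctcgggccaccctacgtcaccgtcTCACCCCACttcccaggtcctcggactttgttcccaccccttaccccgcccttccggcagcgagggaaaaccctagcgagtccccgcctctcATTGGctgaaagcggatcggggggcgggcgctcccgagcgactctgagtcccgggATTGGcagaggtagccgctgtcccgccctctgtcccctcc
Hsd17b7: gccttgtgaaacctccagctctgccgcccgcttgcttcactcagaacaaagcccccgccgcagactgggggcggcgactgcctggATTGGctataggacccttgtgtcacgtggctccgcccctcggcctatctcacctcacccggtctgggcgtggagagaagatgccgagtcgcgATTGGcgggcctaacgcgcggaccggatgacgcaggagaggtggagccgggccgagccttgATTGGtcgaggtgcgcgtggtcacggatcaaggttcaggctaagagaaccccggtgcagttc
Lss: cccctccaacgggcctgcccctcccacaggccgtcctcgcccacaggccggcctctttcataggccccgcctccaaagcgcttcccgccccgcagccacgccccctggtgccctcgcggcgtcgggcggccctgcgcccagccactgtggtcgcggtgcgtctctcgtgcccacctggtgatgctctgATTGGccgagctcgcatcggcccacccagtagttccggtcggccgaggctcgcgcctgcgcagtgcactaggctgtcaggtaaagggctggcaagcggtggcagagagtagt
Abca1: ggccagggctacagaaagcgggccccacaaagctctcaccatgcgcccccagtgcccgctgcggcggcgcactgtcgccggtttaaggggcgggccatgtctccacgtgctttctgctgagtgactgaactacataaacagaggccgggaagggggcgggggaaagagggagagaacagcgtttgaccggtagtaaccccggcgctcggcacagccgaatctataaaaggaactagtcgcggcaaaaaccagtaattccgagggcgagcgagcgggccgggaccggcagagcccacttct
Acss2: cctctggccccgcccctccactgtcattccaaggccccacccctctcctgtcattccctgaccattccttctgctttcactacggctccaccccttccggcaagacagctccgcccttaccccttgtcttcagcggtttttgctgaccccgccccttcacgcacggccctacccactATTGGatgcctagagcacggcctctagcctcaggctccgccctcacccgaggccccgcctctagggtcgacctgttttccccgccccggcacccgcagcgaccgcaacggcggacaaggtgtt

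The sterol and fatty acid synthesis genes differed little between HBC and LBC. None of the 36 was called higher in HBC and none lower, where a call needs an adjusted p under 0.05 from limma and a fold above 1.5, on log2(intensity + 16). Of all 19938 genes, 2.54% were called higher and 1.13% lower by this rule. By the adjusted p alone, 4 members were higher, namely Hsd17b7, Abcg1, Abca1 and Lss, none was lower and 32 did not pass. That share of 11.1% stands beside 6.93% of all genes higher and 11.4% lower by the same rule, and the difference in shares was not tested. At an unadjusted p under 0.05, 7 members passed, the additional ones being Insig2, Stard4 and Elovl6. The share of all genes at that threshold was not taken, and it cannot be smaller than the share by the adjusted p. This count is therefore not read as a result about the members. The log2 fold changes of the 36 (HBC minus LBC) ran from -0.24 for Elovl6 to 0.46 for Hsd17b7.

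The 95% intervals show how small a change the arrays allowed. For 34 of the 36 genes the limma interval of the difference lay within 1.5-fold in both directions, and the exceptions were Hsd17b7, with an upper bound of 1.57-fold, and Abcg1, with an upper bound of 1.53-fold. The same was true of 34 genes when the interval was taken from each gene's own spread. Among all genes 92.4% had such an interval, against 94.4% of the members, so the shares were close. The added 16 makes changes of dim genes smaller, which bears on Ch25h, the 1 member with a mean intensity below 100.

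**Figure D1:**
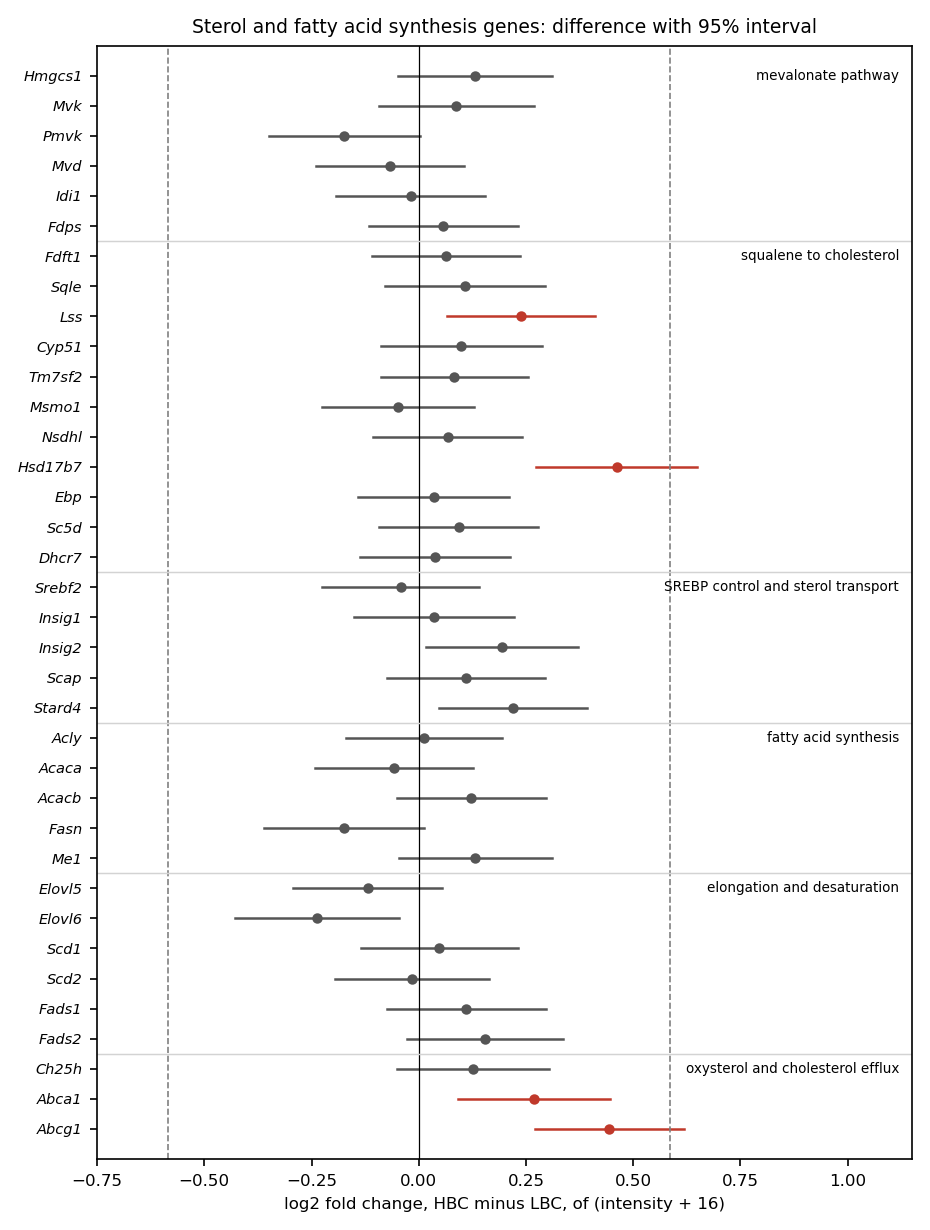
The 36 genes by role, each with its log2 fold change on the horizontal axis (HBC over LBC, intensity + 16), with bars for the 95% interval from limma over 3 arrays per group; dashed lines mark 1.5-fold. The 4 genes in red had an adjusted p under 0.05, and the intervals of the other 32, in grey, lay inside the dashed lines.

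Of the 6 enzymes of the mevalonate route measured, none passed the test, and their log2 fold changes ran from -0.17 to 0.13. Hmgcs1 encodes the cytosolic synthase of an early step of the route. It read 1822, 1979 and 1822 in the HBC replicates 1 to 3 and 1585, 1677 and 1874 in the LBC replicates, so the groups overlapped, with a log2 fold change of 0.13 (95% interval -0.05 to 0.31, adjusted p = 0.33). The kinases Mvk and Pmvk, which phosphorylate mevalonate in turn, had log2 fold changes of 0.09 and -0.17. For Pmvk the HBC arrays (238 to 247) lay below the LBC arrays (252 to 298), with an adjusted p of 0.17. The decarboxylase Mvd (-0.07), the isomerase Idi1 (-0.02) and Fdps, which builds farnesyl diphosphate (0.06), overlapped between groups.

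Of the 11 enzymes from squalene to cholesterol, 2 were higher in HBC by the adjusted p. Hsd17b7 (transcript cluster 10359917), a ketoreductase that helps remove the methyl groups at C4 of the sterol ring, read 1374, 1418 and 1298 in HBC and 913, 921 and 1139 in LBC. Each HBC array was above each LBC array, and LBC replicate 3 was nearest to HBC. The means were 1363 ± 60.7 (SD, n = 3 arrays) and 991 ± 128 (SD, n = 3), a ratio of 1.38 or 0.46 in log2 units (SE 0.092, limma adjusted p = 4e-04). Its direct partners in C4 demethylation did not pass. Msmo1, the C4 methyl oxidase, had a log2 fold change of -0.05, and Nsdhl, the decarboxylating dehydrogenase of the same complex, one of 0.07.

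Lss (transcript cluster 10364194), the synthase that folds squalene epoxide into lanosterol, read 887, 908 and 950.4 in HBC and 733, 791 and 798 in LBC. The groups did not overlap, and the change was 0.24 in log2 units (SE 0.085, limma adjusted p = 0.048), close to the threshold. The enzymes on either side of it did not pass the test, and their difference from Lss was not tested. Sqle, the epoxidase and a rate-controlling step, read 2390.5, 2391 and 2354 in HBC and 2035, 2074 and 2541 in LBC, with 0.11 (adjusted p = 0.45). Without LBC replicate 3, Sqle was at 0.21 (adjusted p = 0.028) and Lss at 0.26. Cyp51, the lanosterol demethylase, had 0.10. Fdft1, which makes squalene, had 0.06, and its other cluster 0.12. The log2 fold changes of the late enzymes Tm7sf2, Ebp, Sc5d and Dhcr7 ran from 0.03 to 0.09, and none passed the test. Of the 17 enzymes of sterol synthesis as a whole, 13 had a value above 0, with a median of 0.07, beside a median of -0.07 over all genes.

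The genes that sense and regulate sterol did not pass the test. Srebf2, which encodes SREBP2, read 1797, 1866 and 1649.8 in HBC and 1673, 1798 and 2008 in LBC, a log2 fold change of -0.04 (95% interval -0.22 to 0.14, adjusted p = 0.79). Insig1, itself a sensitive target of SREBP, read 1766, 1796 and 1712 in HBC and 1543, 1666 and 1958 in LBC, a log2 fold change of 0.04 (95% interval -0.15 to 0.22, adjusted p = 0.82). For both genes LBC replicate 3 was the highest of the 6 arrays. Insig2, its relative that is less dependent on SREBP, lay higher on each HBC array (1352, 1332 and 1218) than on any LBC array (1069, 1122 and 1212), with 0.19 and an adjusted p of 0.12. Scap had 0.11 with overlapping groups. Stard4, a carrier of cholesterol between membranes, read 804, 799 and 764 in HBC and 647, 668 and 712 in LBC without overlap, with 0.22 and an adjusted p of 0.069.

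The enzymes that make palmitate did not pass either. Acly, which supplies cytosolic acetyl-CoA from citrate, had a log2 fold change of 0.01 (95% interval -0.17 to 0.19). Acaca, the acetyl-CoA carboxylase of the synthetic route, had -0.06, with -0.11 for its other cluster, and its mitochondrial relative Acacb 0.12. Fasn, the fatty acid synthase, read 1737, 1767 and 1577 in HBC and 1756, 1837 and 2161 in LBC, with -0.17 (95% interval -0.36 to 0.01, adjusted p = 0.20). Its groups overlapped, and LBC replicate 3 was the highest array. Me1, a source of NADPH for synthesis, had 0.13 by both of its clusters.

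Elongases and desaturases were spread around 0, with a median of 0.02 over 6 genes. Elovl6, which lengthens palmitate to stearate, had the lowest value of the 36. It read 2108, 2135 and 2067 in HBC and 2247, 2335 and 2916 in LBC, without overlap and with LBC replicate 3 far above the rest, at -0.24 (SE 0.093, adjusted p = 0.077). Without that array it was at -0.12 (adjusted p = 0.17). Elovl5, which acts on polyunsaturated chains, had -0.12. The stearoyl-CoA desaturases Scd1 and Scd2, which make oleate, had 0.05 and -0.02. Scd1 read 3998, 4099 and 3817 in HBC and 3579, 3656 and 4328 in LBC. Fads1 and Fads2, the desaturases of polyunsaturated fatty acid synthesis, had 0.11 and 0.15 with overlapping groups.

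The cholesterol efflux pumps Abcg1 and Abca1 were higher in HBC by the adjusted p, and neither was called. Their dim relatives Abcg4, Abcg5 and Abcg8, named after their values were seen, had log2 fold changes of -0.05, -0.10 and -0.15. None of these relatives passed the test. Abcg1 (transcript cluster 10443730) read 156, 159.5 and 168 in HBC and 122, 111 and 109.7 in LBC. The groups lay well apart, at 161 ± 6.27 (SD, n = 3) and 114 ± 6.65 (SD, n = 3), a ratio of 1.41 or 0.44 in log2 units (SE 0.085, limma adjusted p = 0.00023). Abca1 (transcript cluster 10512949) read 399, 426 and 369 in HBC and 307, 335 and 341 in LBC, 1.22 times as much or 0.27 in log2 units (SE 0.087, limma adjusted p = 0.028), also without overlap. Ch25h encodes the enzyme that makes 25-hydroxycholesterol, an LXR ligand, and is known as an interferon-inducible gene. It was dim, at 66.2, 79.4 and 79.2 in HBC and 67.4, 66.1 and 68.0 in LBC, and its groups overlapped (0.13, adjusted p = 0.34).

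**Figure D2:**
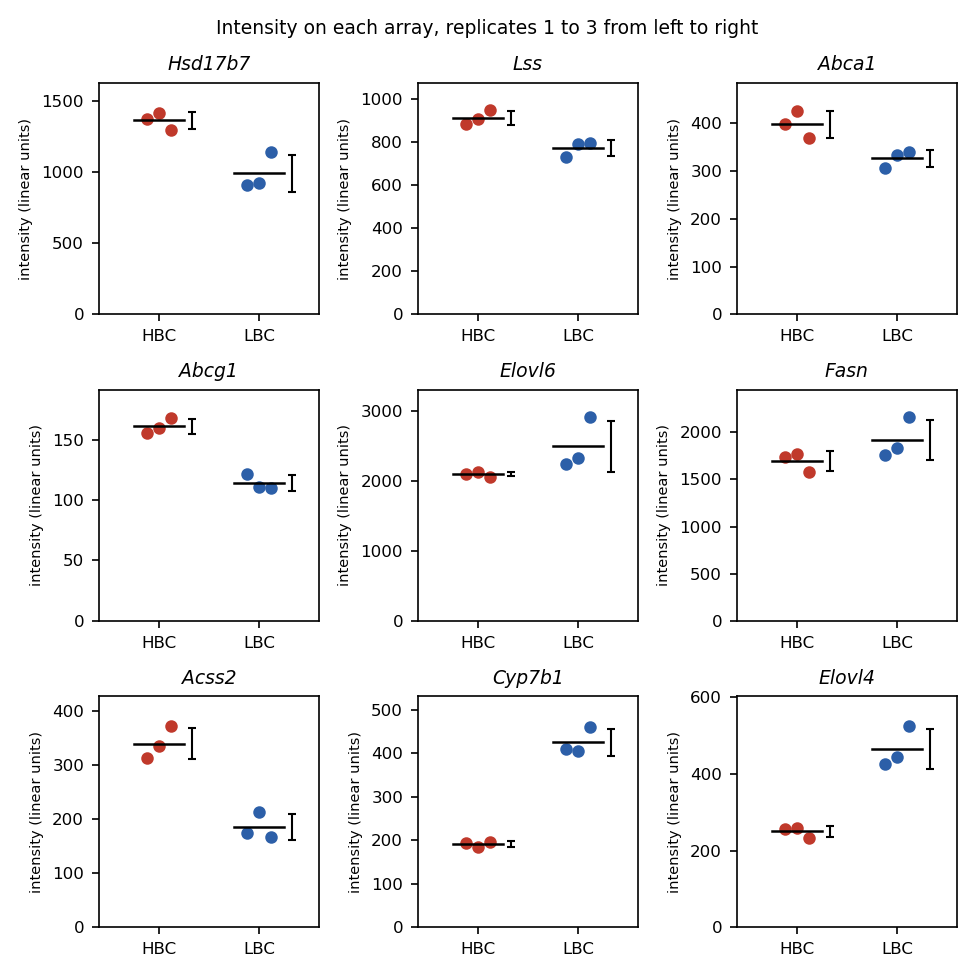
Intensity (linear units, axis from 0) of 9 genes on each array, HBC in red and LBC in blue, with a line at the mean of 3 arrays and a bar of 1 SD beside it. The HBC arrays of Hsd17b7, Lss, Abca1, Abcg1 and Acss2 lie above the LBC arrays, those of Elovl6, Cyp7b1 and Elovl4 lie below, and those of Fasn overlap.

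The 4 higher members did not hold their place to the same degree. In 21 alternative fits the adjusted p of Abcg1 was under 0.05 each time, and that of Hsd17b7 in 20, the exception being the methods' t-test at 0.10. Abca1 passed in 13 and Lss in 11. No sign of these 4 turned in any of them, and no member was called in any with the fold threshold of 1.5. The log2 fold change of Hsd17b7 ran from 0.41 to 0.57 and that of Abcg1 from 0.36 to 0.53.

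The arrays themselves varied together across these genes. LBC replicate 3 was the highest LBC array for 34 of the 36 genes, with Lss among them and Acacb and Abcg1 outside, and it was above every HBC array for 18. The members' median deviation from their own mean was -0.12 and -0.05 on LBC replicates 1 and 2 and 0.09 on LBC replicate 3, and it was 0.04, 0.06 and -0.02 on the HBC replicates. This was not particular to them: of 2770 genes with a mean intensity above 1000, LBC replicate 3 was the highest LBC array for 97.7%, and 23 of the 36 members are in that range. Over all genes the share was 50.1%. Without LBC replicate 3, 10 members had an adjusted p under 0.05, all higher in HBC: Abca1, Abcg1, Fads2, Hmgcs1, Hsd17b7, Insig2, Lss, Me1, Sqle and Stard4. In that fit 11.0% of all genes were higher and 15.6% lower. Leaving out HBC replicate 1 or 2 or LBC replicate 1 or 2 left Abcg1 and Hsd17b7 as the higher members. Leaving out HBC replicate 3 left these and Abca1. Without LBC replicate 1, Elovl6 was lower, beside 13.2% of all genes. Over these fits 5.26% to 6.76% of all genes were higher and 7.28% to 13.2% lower. For Ch25h, Abca1 and Abcg1 the mean deviation on LBC replicate 3 was -0.13, close to -0.14 and -0.15 on the other LBC arrays. It was still the highest LBC array for Ch25h and Abca1. None of these genes had a mean above 1000, and a difference from other genes of their intensity was not tested.

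**Figure D3:**
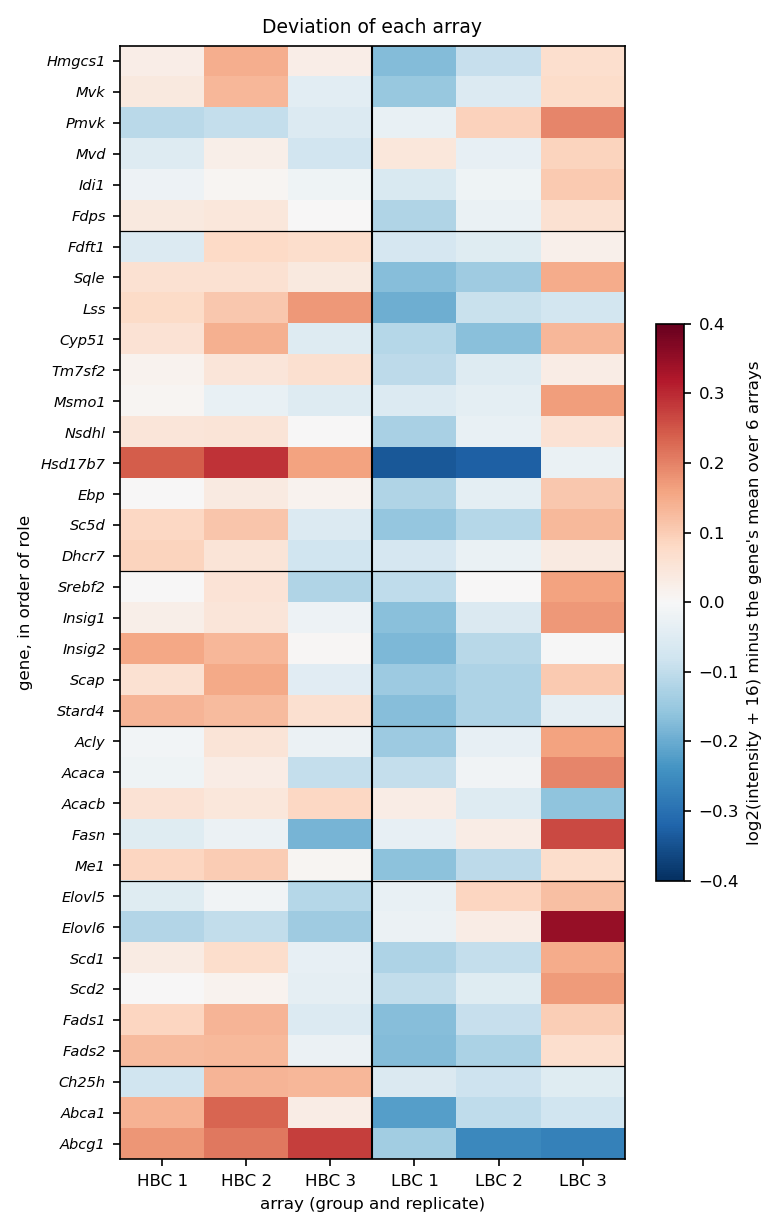
Deviation of each array from the gene's mean over 6 arrays, in log2(intensity + 16), for the 36 genes in order of role, red above and blue below. LBC replicate 3 is red for most genes while LBC replicates 1 and 2 are blue, and Abcg1 is red on each HBC array and blue on each LBC array.

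Scaling of the arrays moved the number of members that passed. It also turned the sign of small differences that did not pass, those of Mvd and Idi1 under cyclic loess and of Mvd, Idi1, Msmo1, Srebf2, Acaca and Scd2 under median centring. Without a fold threshold, 12 members were higher and 2 lower after quantile normalization, and 14 higher and 2 lower after cyclic loess normalization, in place of 4 and 0; in both, the lower ones were Elovl6 and Fasn. In these fits 13.2% and 15.5% of all genes were higher and 15.9% and 12.3% lower. Median centring of each array gave 5 and 0, beside 7.75% and 4.67% of all genes. Over the 36 genes 26 had a value above 0, with a median of 0.08, while 30.7% of all genes did, with a median of -0.07, and 44.2% of genes with a mean intensity above 1000, with a median of -0.03. After median centring the median of all genes was 0.00 and that of the members 0.15. The HBC arrays lay above the LBC arrays without overlap for 7 members (19.4%, beside 10.1% of all genes) and below them for 2 (5.56%, beside 25.1%).

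**Figure D4:**
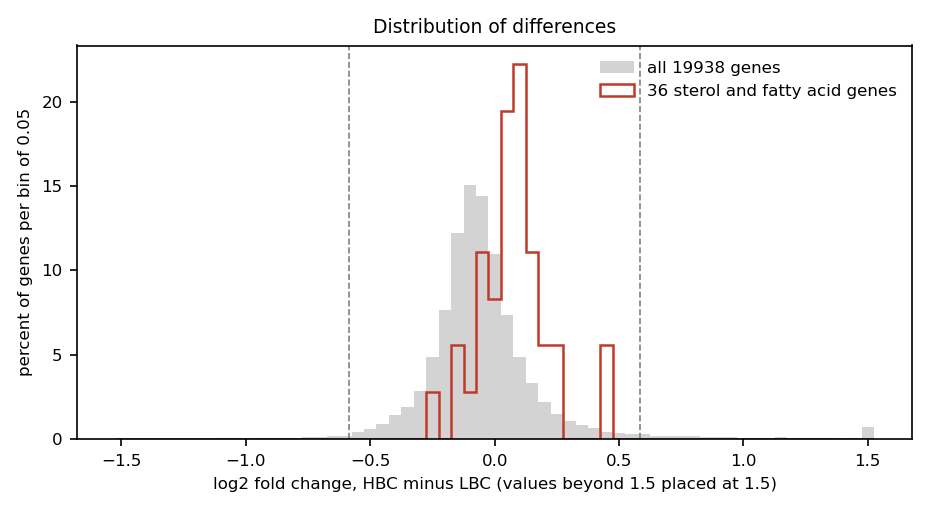
Percent of genes per bin of log2 fold change (HBC minus LBC) for all 19938 genes in grey and for the 36 sterol and fatty acid genes as a red outline; dashed lines mark 1.5-fold, and values beyond 1.5 are placed at 1.5. The members lie between -0.24 and 0.46, with a median of 0.08 against -0.07 for all genes.

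Among the other genes of the same pathways, Cyp7b1, Elovl4, Acss2 and Npc2 had larger log2 fold changes in size than any of the 36. Of 63 listed, 51 had a cluster of their own and the other 12 were not analysed here. Of the 51, 1 was called higher (Acss2) and 2 were called lower (Cyp7b1 and Elovl4), and 48 were not called, beside the 2.54% and 1.13% of all genes. Their median log2 fold change was -0.02.

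Cyp7b1 (transcript cluster 10497381), the oxysterol 7-alpha-hydroxylase that inactivates 25-hydroxycholesterol, read 193, 184 and 197 in HBC and 409, 405 and 461 in LBC. HBC had less than LBC on every array, with a ratio of 0.451, or -1.09 in log2 units (SE 0.086, limma adjusted p = 2.4e-11). Acss2 (transcript cluster 10477649), which makes acetyl-CoA from acetate and is a known SREBP target, read 313, 335 and 372 in HBC and 175, 213 and 168 in LBC, 1.83 times as much or 0.82 in log2 units (SE 0.094, limma adjusted p = 5.2e-08). Array weights took its value to 0.57, under the fold threshold. Elovl4 (transcript cluster 10595392), an elongase of very long chains, read 257, 259.9 and 234 in HBC and 427, 445 and 524 in LBC, a ratio of 0.537, or -0.85 in log2 units (SE 0.090, limma adjusted p = 1.4e-08). In each of the 3 genes the groups were separate.

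By the adjusted p alone, a further 4 were higher and 4 lower, and they are named here after their values were seen. With the called genes this made 5 of 51 higher (9.8%, beside 6.93% of all genes) and 6 lower (beside 11.4% of all genes). Npc2 (0.50) and Lipa (0.38) act in lysosomes, where LIPA frees cholesterol from its esters and NPC2 passes it on towards the membrane. Mylip (0.30) encodes a ubiquitin ligase. Oxsm (0.28) was higher while Mcat (-0.35) and Mecr (-0.27) were lower, and all of these belong to fatty acid synthesis in mitochondria. Lbr (-0.27), a sterol reductase of the nuclear envelope that shares its step with Tm7sf2, and Hacd3 (-0.30), a dehydratase of chain elongation, were lower. Npc2 was called higher without LBC replicate 3 (log2 fold change of 0.59) and without both LBC arrays whose source name reads HBC (0.63, with 1 LBC array left and the spread taken from HBC).

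Among the genes listed whatever their values, Srebf1, which encodes SREBP1, read 516, 528 and 507 in HBC and 457, 485 and 497 in LBC, without overlap but with a log2 fold change of 0.10 and an adjusted p of 0.42. Nr1h3, which encodes LXR-alpha, was dim, with an HBC mean of 63.6 ± 6.13 (SD, n = 3) and an LBC mean of 64.0 ± 5.60 (SD, n = 3), with -0.01 (adjusted p = 0.97).

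**Figure D5:**
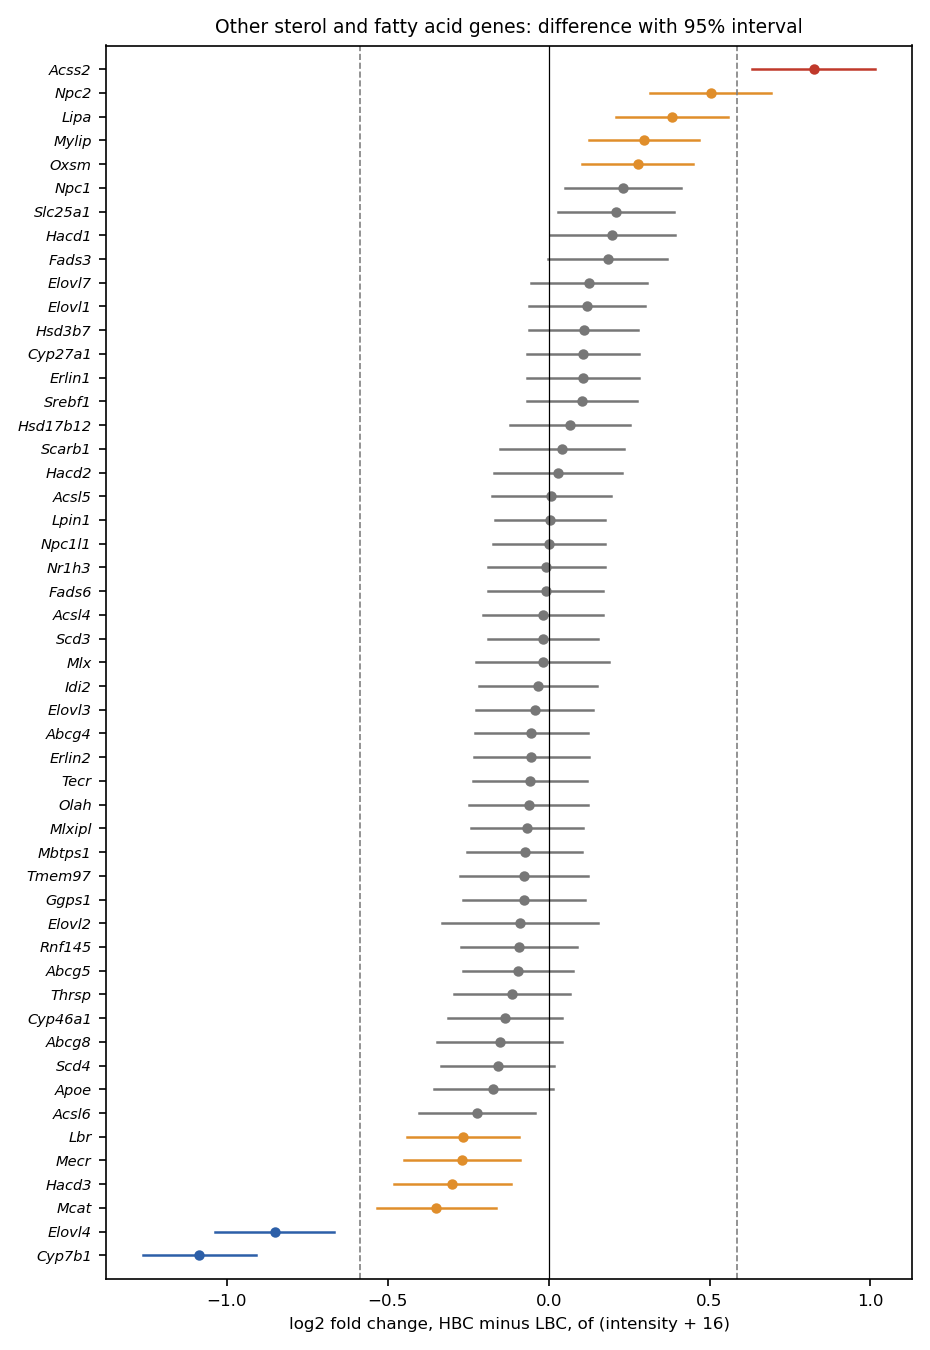
The 51 other sterol and fatty acid genes, each with its log2 fold change on the horizontal axis (HBC over LBC, intensity + 16), with bars for the 95% interval from limma over 3 arrays per group and dashed lines at 1.5-fold. Acss2, in red, was called higher, Cyp7b1 and Elovl4, in blue, lower, and the 8 genes in orange had an adjusted p under 0.05 with a fold under 1.5.

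Some markers of cell type also differed between the groups. Of 9 markers of mature adipocytes measured, none was called; Fabp4 (0.42) and Retn (0.58) had an adjusted p under 0.05, and Adipoq and Lep did not (0.06 and -0.13). Of the 9, 6 had values below 0, with a median of -0.04. The summed intensity of the 9, most of it from Fabp4, was 3101 to 3295 on the HBC arrays and 2458 to 2793 on the LBC arrays. Of 8 preadipocyte markers, Col3a1 was called higher (0.80), and Pdgfrb (0.53), Pdgfra (0.37) and Col1a1 (0.35) were higher and Cd34 (-0.45) lower by the adjusted p. The sum of the 8 was 17428 to 19880 on HBC and 14080 to 16414 on LBC arrays. By the adjusted p, 50% of the preadipocyte and 22.2% of the adipocyte markers were higher, beside 6.93% of all genes. Cd34 was the only marker of these 2 lists that was lower, beside 11.4% of all genes. None of 8 macrophage and 6 endothelial markers had an adjusted p under 0.05. Summed macrophage markers were 636 to 668 on HBC and 712 to 756 on LBC arrays, and endothelial markers 445 to 521 and 444 to 545. Only 2 of the 8 macrophage markers had means above 100 in both groups. The HBC arrays lay below the LBC arrays for 3 of the 8 (37.5%), beside 25.1% of all genes. The part of these markers in the differences of Abcg1, Abca1, Hsd17b7 and Lss was not tested.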

How the data were processed

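RNA of 3 HBC and 3 LBC technical replicates was measured on Affymetrix mouse gene arrays. The authors deposited 1 intensity per transcript cluster and array on a linear scale, made with Affymetrix Expression Console per the labels. Which version ran, how probes were summarized and how arrays were scaled is not given in the sources used here. Row identifiers were those of an earlier mouse gene array than the 2.0 design that the methods name. Of 35556 clusters, 21789 carried 1 gene symbol, 1621 several and 12146 none; the 21789 were used, 21698 of them matched to RefSeq by gene identifier, which changed no symbol. For a gene with several clusters, the highest mean linear intensity over 6 arrays was used, giving 19938 genes.

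Intensities were tested as log2(intensity + 16), since they were linear, with limma 3.58.1 in R 4.3.3 (lmFit, eBayes; 24.9 prior and 4 residual degrees of freedom), with Benjamini-Hochberg adjustment over all genes. The fit was tested on simulated data with independent noise for each gene and array, so shifts shared across an array were not covered. The number of arrays limits the precision. The members and lists were chosen with earlier results of these data known. Named are all members, the called other genes, Srebf1, Nr1h3 and Acss2 whatever their values, and defining markers; some genes of this rule are not reported here. Alternatives covered scaling, the added constant, filters, the variance model, the replicate block, the choice of cluster, thresholds and left-out arrays. Binding assays and other experiments of the study were not analysed here.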

Additional observations from a re-analysis of the deposited data

How the results depend on the processing

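No member was called higher or lower in any alternative that kept a fold threshold; 4 were higher with none, and of the other genes 5 were then higher and 6 lower. With a fold above 2, the other genes gave 0 higher and 1 lower (Cyp7b1), and array weights gave 0 higher. Without both LBC arrays whose source name reads HBC, which leaves 1 LBC array, 2 other genes were higher, and leaving out 1 array gave 1 to 2. The count of members by the adjusted p alone, 4 higher and 0 lower, was added after seeing the data. It became 12 and 2 under quantile scaling, 14 and 2 under cyclic loess and 20 and 4 with array weights, where 21.0% of all genes were higher and 48.1% lower and LBC replicate 2 had a weight of 53.5 and LBC replicate 3 one of 0.108. The higher ones numbered 2 with an added 1 in place of 16, 1 with the Student's t-test on all genes and 2 with every transcript cluster in the fit. In these fits 5.97%, 3.65% and 5.09% of all genes were higher. No member was lower in them, beside 8.9%, 3.29% and 5.68% of all genes. Filters at a mean of 100, in both groups or in at least 1, gave 1 lower member, Elovl6. The higher members were then Abca1, Abcg1, Hsd17b7, Lss and Stard4. Of the genes kept by these filters, 10.7% and 11.2% were higher and 19% and 19.1% lower. Leaving out 1 array gave 2 to 10 higher (10 without LBC replicate 3) and 0 to 1 lower (1 without LBC replicate 1). Of all genes, 5.26% to 11.0% were then higher and 7.28% to 15.6% lower. Deviations of HBC and LBC arrays with the same replicate number correlated at -0.096, -0.24 and -0.50 for numbers 1, 2 and 3. Between different numbers the correlations ran from -0.47 to 0.49. The deviations were taken within each group and depend on each other, so they do not settle whether arrays were paired. With the replicate block 2 members were higher, Abcg1 and Hsd17b7, beside 6.01% of all genes higher and 8.57% lower. Of the members, 10 changed sign in at least 1 alternative, each at an adjusted p above 0.05 and at a size of at most 0.09; the value of Nr1h3 changed sign in 7 alternatives and passed the adjusted p in 1 of them, at 0.11 with array weights (adjusted p = 0.013). The cause was not tested. Dim signal limits Ch25h and Nr1h3, whose means were below 100.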
